A study of Homo sapiens with 9 samples.

Results

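The 10 genes described here encode the 4 human Argonaute proteins (AGO1, AGO2, AGO3 and AGO4) and the machinery that makes microRNAs and silences through them: DROSHA, DGCR8, XPO5, DICER1, TNRC6A and TNRC6B. They were chosen by name, with earlier results of these data known, as the rows of a gene count table whose Ensembl identifiers carry these symbols. Each symbol matched 1 of the 67071 rows, and all 10 were among the 16855 genes that passed the filter on low counts. The table holds 9 polyA-selected RNA-seq libraries of 22Rv1, an established human prostate carcinoma cell line, in 3 groups of 3. The control group (shGFP) was labelled wild type and carried a short hairpin RNA (shRNA) against GFP. The other groups carried an shRNA against the chromatin remodeller CHD9: hairpin 1 (label KD CHD9 by shRNA No.1) or hairpin 2 (shRNA No.2). Every group therefore expressed a hairpin RNA, and cells without one were not analysed here. Nothing in the labels says that the 3 libraries of a group came from separate cultures, so the tests weigh differences against library-to-library spread that could be purely technical.

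A microRNA is transcribed as part of a longer RNA. In the nucleus the RNase III enzyme DROSHA, held by its partner DGCR8, cuts out a hairpin, which exportin 5 (XPO5) carries to the cytoplasm. There DICER1 trims it to a short duplex, and an Argonaute keeps one strand and uses its seed to find target messages. TNRC6 (GW182) scaffold proteins bind the Argonaute and recruit deadenylases and decapping enzymes. AGO2 is the Argonaute best known for cutting a fully matched target. Short hairpin RNAs expressed in cells use the same exporter, DICER1 and Argonautes.

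Total counts ranged from 18911142 to 31968602 per library. In pairwise comparisons of counts over genes, chi-square per degree of freedom was 1.72 to 2.86 within groups and 9.68 to 30.5 between them. Levels below are CPM (counts scaled to a common library size, with TMM-adjusted totals), and differences are log2 fold changes from edgeR's quasi-likelihood test, with p-values adjusted by Benjamini and Hochberg over all 16855 genes. A gene was called when its adjusted p was under 0.05. CHD9 itself was at 22.2 ± 1.42 CPM (SD, n = 3) in shGFP libraries, 15.4 ± 1.07 in those of hairpin 1 and 18.8 ± 0.464 in those of hairpin 2. The knockdown was therefore partial, with log2 fold changes of -0.52 (edgeR adjusted p = 7.2e-08) and -0.24 (edgeR adjusted p = 0.006). The 7 luminal prostate markers examined, KLK3 among them, reached 1 CPM in every library, and none of the 3 basal, 3 endothelial or 3 leukocyte markers did. SYP, 1 of 3 neuroendocrine markers, and COL1A1, 1 of 4 fibroblast markers, also reached it, at 1.9 to 5.11 and 4.78 to 7.73 CPM.

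Most of the 10 genes were slightly more abundant after CHD9 knockdown, and none of the 10 was called lower with the test described above. In the mean of both hairpins, 7 of the 10 were called higher, 0 lower and 3 not called, where 22.3% of all genes tested were called higher and 23.2% lower. With hairpin 1 alone the count was again 7 higher and 0 lower, beside 23.9% and 23.4% of all genes. With hairpin 2 it was 7 higher and 0 lower, beside 17.2% and 18.5%. Because the 10 genes were chosen with earlier results of these data known, their counts were not tested against these shares. The 7 genes were not the same for each hairpin: AGO2 was called with hairpin 1 and not hairpin 2, and AGO3 with hairpin 2 and not hairpin 1. The median log2 fold change of the 10 genes was 0.12 in the mean contrast, 0.15 with hairpin 1 and 0.14 with hairpin 2, and that of all genes was 0.00 in each. AGO1, AGO4, DICER1, TNRC6A, TNRC6B and XPO5 were higher in all 6 CHD9 hairpin libraries than in all 3 shGFP libraries, a pattern shown by 15.5% of all genes. The sizes were modest for most members: the median absolute log2 fold change of all genes was 0.17. The hairpin contrasts share the shGFP libraries, so their values are given side by side and are not independent of each other. More RNA per cell and more cells that express a gene cannot be told apart in these bulk libraries.

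**Figure D1:**
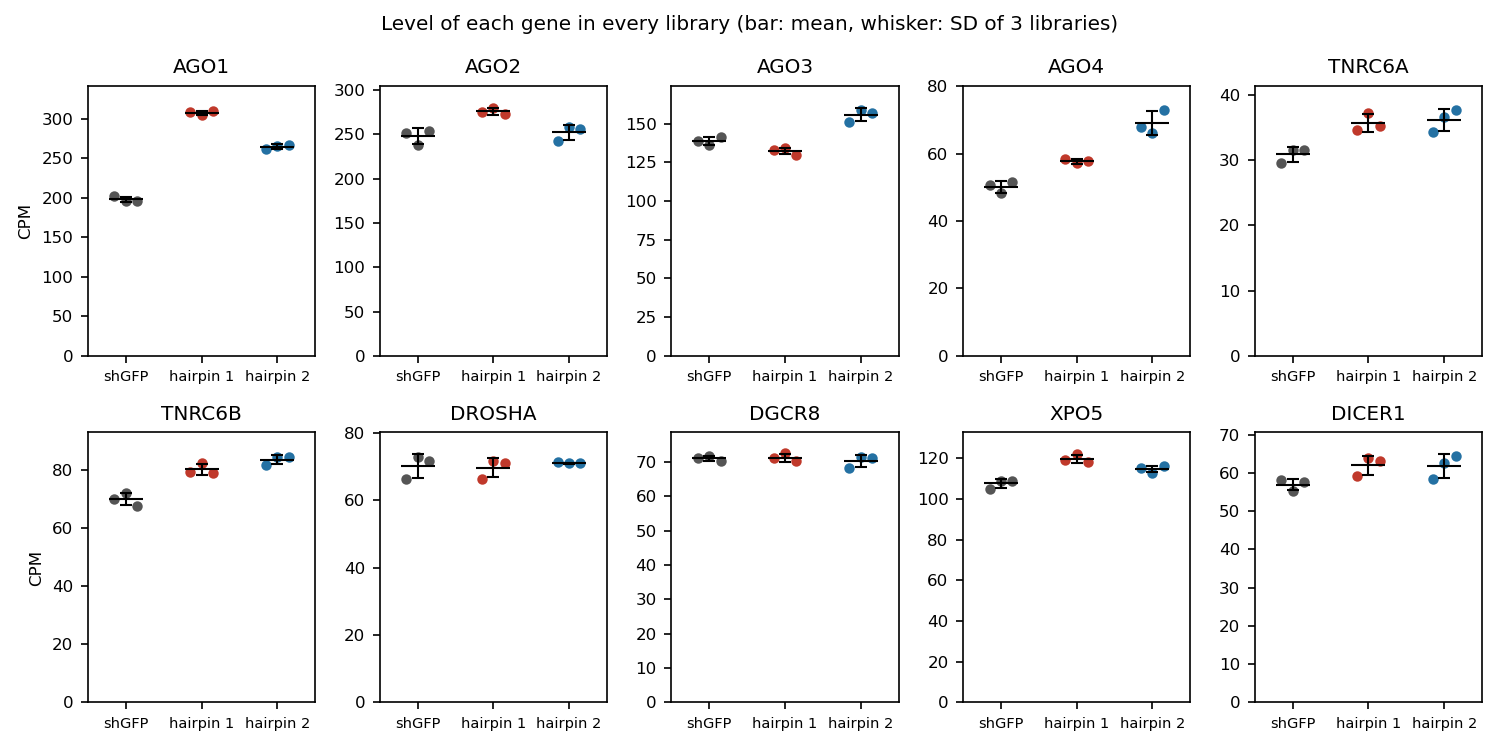
CPM of the 10 genes in each of the 9 libraries, by group (points, single libraries; lines and whiskers, mean and SD, n = 3). AGO1 separates the 3 groups with no overlap, while DROSHA and DGCR8 lie at about 70 CPM in each.

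AGO1, AGO4 and AGO3 lie in a row on the plus strand of chromosome 1, and their promoters are shown because these neighbours, which share a locus, differed in how they responded to the hairpins. In GENCODE 29 on GRCh38, AGO4 (ENSG00000134698.11) spans chr1:35808172-35857890, AGO1 (ENSG00000092847.13) spans chr1:35869808-35930528 and AGO3 (ENSG00000126070.20) spans chr1:35930718-36072500. The sequences below are the RefSeq promoter windows on GRCh38.p14, plus strand, 5′ to 3′, from 250 bases before to 50 after the RefSeq start: chr1:35807766-35808065 for AGO4, chr1:35882959-35883258 for AGO1 and chr1:35930855-35931154 for AGO3. The AGO4 window ends just before the GENCODE gene, and the AGO1 and AGO3 windows lie inside theirs. Capitals mark matches, on either strand, to the GC box GGGCGG or to CCAAT.
AGO4: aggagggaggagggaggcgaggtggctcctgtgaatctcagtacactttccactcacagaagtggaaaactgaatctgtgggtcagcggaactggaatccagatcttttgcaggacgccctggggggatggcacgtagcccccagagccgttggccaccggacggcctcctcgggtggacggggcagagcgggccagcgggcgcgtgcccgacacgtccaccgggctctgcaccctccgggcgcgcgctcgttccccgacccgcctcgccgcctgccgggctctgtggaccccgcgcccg
AGO1: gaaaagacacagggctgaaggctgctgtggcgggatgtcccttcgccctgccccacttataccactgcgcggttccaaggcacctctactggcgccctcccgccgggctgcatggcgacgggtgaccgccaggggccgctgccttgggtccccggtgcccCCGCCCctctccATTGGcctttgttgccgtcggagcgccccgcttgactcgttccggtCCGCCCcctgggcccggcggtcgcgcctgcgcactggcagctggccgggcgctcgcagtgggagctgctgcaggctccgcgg
AGO3: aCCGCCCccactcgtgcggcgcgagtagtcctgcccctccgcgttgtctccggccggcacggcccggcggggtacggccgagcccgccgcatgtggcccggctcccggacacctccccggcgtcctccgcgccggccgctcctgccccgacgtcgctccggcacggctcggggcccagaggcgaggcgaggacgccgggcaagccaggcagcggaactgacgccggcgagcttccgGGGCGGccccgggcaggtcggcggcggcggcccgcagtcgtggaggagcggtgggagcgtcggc
All 3 windows were GC-rich. GC content was 69.0% for AGO4, 72.3% for AGO1 and 80.0% for AGO3, beside a median of 58.7% over 34943 RefSeq promoters of the same length. They held 29, 30 and 50 CpG dinucleotides, where the median promoter held 14. AGO1 had 2 GC boxes and 1 CCAAT, AGO3 had 2 GC boxes, and AGO4 had neither motif. Of all promoters, 44.9% held a GC box and 34.6% a CCAAT. The E-box CACGTG (7.23% of promoters), the NRF1-type motif GCATGCGC (3.02%) and the CRE TGACGTCA (1.84%) were searched on both strands and did not occur in these windows, and no match overlapped another.

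AGO1 had the largest mean change among the 10 genes. It was at 202, 196 and 196 CPM in the shGFP libraries, 308, 305 and 310 with hairpin 1, and 261, 265 and 267 with hairpin 2. The 3 groups did not overlap, with shGFP lowest and hairpin 1 highest. The log2 fold change was 0.64 (SE 0.027, edgeR adjusted p = 5.3e-24) with hairpin 1 and 0.42 (SE 0.027, edgeR adjusted p = 3.3e-17) with hairpin 2, or 1.55-fold and 1.34-fold. Among all genes tested, 6.9% had a higher mean log2 fold change. The hairpins differed from each other by 0.22 (edgeR adjusted p = 5.3e-09), with hairpin 1 higher.

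AGO4, the neighbour upstream, showed the opposite order of hairpins. Its libraries were at 50.6, 48.2 and 51.5 CPM in shGFP libraries, 58.5, 57.1 and 57.7 with hairpin 1, and 68.0, 66.1 and 72.9 with hairpin 2. Again no group overlapped another. The log2 fold change was 0.20 (SE 0.045, edgeR adjusted p = 0.00018) with hairpin 1 and 0.46 (SE 0.044, edgeR adjusted p = 1.1e-11) with hairpin 2. The difference between the hairpins was -0.25 (edgeR adjusted p = 8.1e-06), with hairpin 2 higher.

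AGO3, directly downstream of AGO1, was called higher with hairpin 2 and not with hairpin 1. It was at 139, 136 and 141 CPM in shGFP libraries, 133, 134 and 130 with hairpin 1, and 151, 159 and 157 with hairpin 2. The hairpin 1 libraries lay below shGFP and the hairpin 2 libraries above it. The log2 fold change was 0.17 (SE 0.031, edgeR adjusted p = 2.8e-05) with hairpin 2. With hairpin 1 it was -0.07 (SE 0.032, edgeR adjusted p = 0.069), and this became a call, at edgeR adjusted p = 0.05 after rounding, when only the compared groups were fitted. The direct difference between hairpins was -0.23 (edgeR adjusted p = 5.8e-08). With an offset for GC content and length of the longest transcript, the hairpin 2 value was 0.08 and the difference -0.12.

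**Figure D2:**
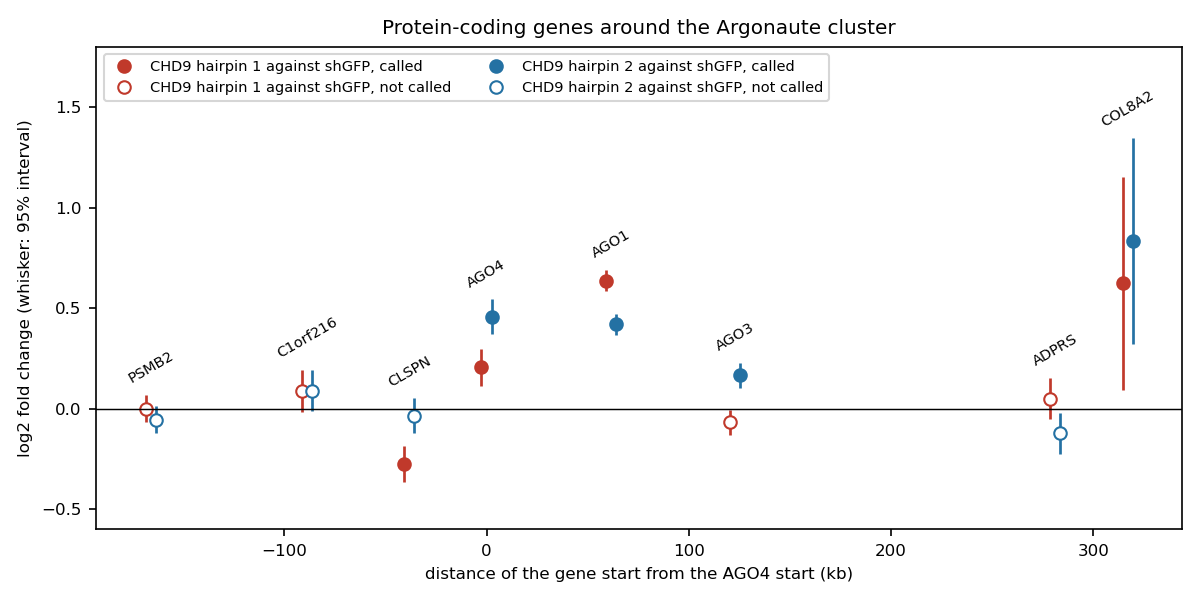
Log2 fold change of the protein-coding genes around the AGO4, AGO1 and AGO3 genes against distance from the AGO4 start in kb, for each hairpin (whiskers, 95% intervals; open circles, not called). AGO1 and AGO4 are above 0 with both hairpins, and the PSMB2, C1orf216 and ADPRS intervals include 0 for hairpin 1. For hairpin 2 those of PSMB2 and C1orf216 include 0, and that of ADPRS, -0.225 to -0.021, does not, though ADPRS was not called.

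Of the other tested genes starting within 200 kb of these Argonautes, CLSPN was called with hairpin 1 and COL8A2 with both hairpins. Among all genes, 23.9% were called higher and 23.4% lower with hairpin 1, and 17.2% and 18.5% with hairpin 2. The proteasome subunit gene PSMB2 had log2 fold changes of 0.00 and -0.05 with hairpins 1 and 2. C1orf216 had 0.09 and 0.09, and ADPRS had 0.05 and -0.12, and none of these was called against shGFP. CLSPN, a replication checkpoint gene between PSMB2 and AGO4, fell with hairpin 1 (-0.27, edgeR adjusted p = 1.3e-06) and was at -0.04 with hairpin 2. COL8A2, a collagen gene downstream of AGO3, rose with both, at 0.62 (edgeR adjusted p = 0.048) and 0.83 (edgeR adjusted p = 0.0079), but from a low level of 1.17 ± 0.473 CPM in shGFP, and its hairpin 1 and hairpin 2 libraries overlapped shGFP. TEKT2 was too low to test. Between the hairpins, hairpin 1 minus hairpin 2, CLSPN (-0.24, edgeR adjusted p = 3e-05) and ADPRS (0.17, edgeR adjusted p = 0.0072) were called.

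AGO2 (ENSG00000123908.12, minus strand, 140520156 to 140635619 of chromosome 8 on GRCh38) changed little. It was at 252, 238 and 254 CPM in shGFP libraries, 275, 280 and 273 with hairpin 1, and 243, 258 and 256 with hairpin 2. Hairpin 1 lay above both other groups, which overlapped. The log2 fold change was 0.15 (SE 0.029, edgeR adjusted p = 1.6e-05) with hairpin 1 and 0.02 (edgeR adjusted p = 0.55) with hairpin 2, and the hairpins differed by 0.13 (edgeR adjusted p = 0.00038). In the mean of both, it was 0.09 (edgeR adjusted p = 0.0029). Other settings changed the calls here. Without shGFP replicate 2 the mean was 0.06 (edgeR adjusted p = 0.074) and not called. With the GC and length offset, hairpin 1 was at 0.03 (edgeR adjusted p = 0.26) and the mean at -0.03, neither called. With that offset AGO2 was called lower with hairpin 2, at -0.09 (edgeR adjusted p = 0.0039).

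Each Argonaute differed between the hairpins, but in unlike directions. AGO1 and AGO2 were higher with hairpin 1, and AGO3 and AGO4 with hairpin 2. Across all genes tested, 29.2% were called between the hairpins, and 4 of the 10 members were. The other 6 were not called, with 95% intervals for hairpin 1 minus hairpin 2 of -0.08 to 0.09 for DICER1, -0.108 to 0.055 for DROSHA and -0.058 to 0.095 for DGCR8. For TNRC6A the interval was -0.13 to 0.09, for TNRC6B -0.13 to 0.02 and for XPO5 0.00 to 0.13. CHD9 itself was also lower with hairpin 1 than with hairpin 2 (edgeR adjusted p = 0.0024). Its part in these differences was not tested.

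**Figure D3:**
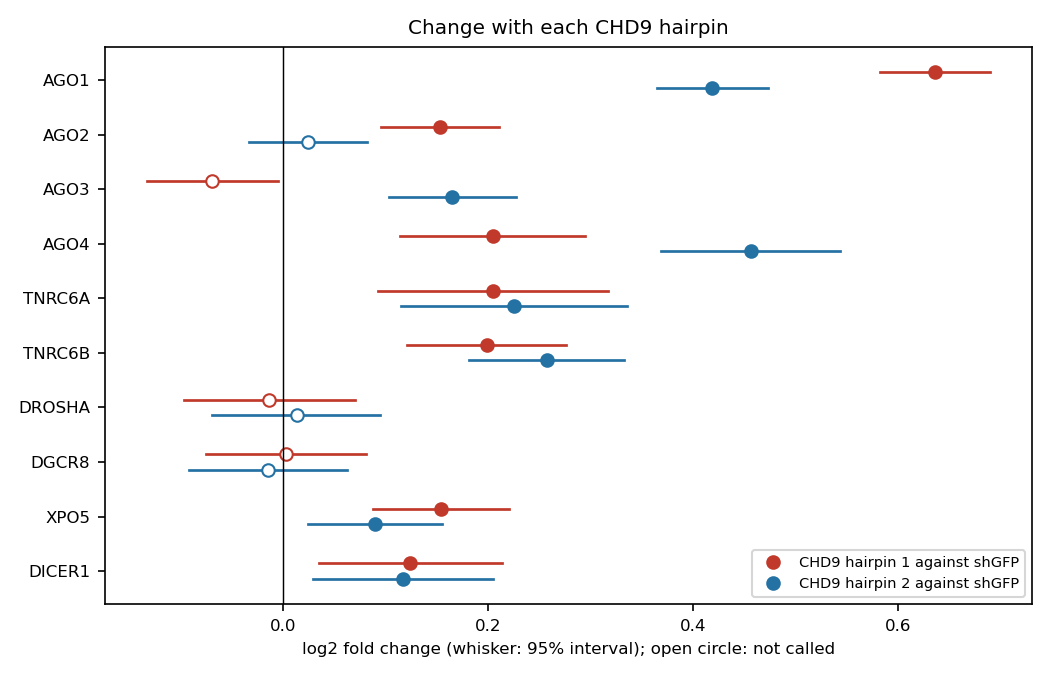
Log2 fold change against shGFP of the 10 genes for each hairpin, with 95% intervals (open circles, not called). AGO1 lies highest with hairpin 1 (0.64) and AGO4 highest with hairpin 2 (0.46), and the intervals of DROSHA and DGCR8 include 0 for both.

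Levels of different genes are compared per kilobase of the union of their exons. In shGFP the order was AGO2 at 15.7 ± 0.537 CPM per kb (SD, n = 3), AGO1 at 14.2 ± 0.251, XPO5 at 12.6, DGCR8 at 9.71, DROSHA at 9.03, AGO4 at 6.90, AGO3 at 6.56, DICER1 at 4.63, TNRC6B at 3.50 and TNRC6A at 2.39. AGO4 and AGO3 overlapped, and the other neighbours in this order did not. With hairpin 1, AGO1 led at 22.1 ± 0.184 CPM per kb, above AGO2 at 17.4 ± 0.215. With hairpin 2, AGO1 led at 19.0 ± 0.242 over AGO2 at 15.9 ± 0.532, and AGO4, at 9.49, lay above DROSHA, at 9.13, with overlapping libraries. The order depended on the length used: per kilobase of the longest transcript XPO5 led in shGFP, before AGO2 at 17.0, DGCR8 at 15.1 and AGO1 at 14.4. On that scale XPO5 also led with hairpin 2, at 21.4 over AGO1 at 19.3, and AGO1 led with hairpin 1, at 22.4 beside XPO5 at 22.3 with overlapping libraries.

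The make-up of the Argonaute messages differed between the groups. Summed over the 4 genes, the level was 43.4 ± 0.992 CPM per kb in shGFP, 53.8 ± 0.0899 with hairpin 1 and 51.8 ± 1.18 with hairpin 2. AGO1 made up 32.9 ± 0.633% of it in shGFP, 41.2 ± 0.395% with hairpin 1 and 36.7 ± 0.381% with hairpin 2. The AGO2 share was 36.1 ± 0.445%, 32.4 ± 0.370% and 30.7 ± 0.518% in that order of groups. AGO3 held 15.1 ± 0.192%, 11.6 ± 0.150% and 14.2 ± 0.220%, and AGO4 held 15.9 ± 0.204%, 14.8 ± 0.179% and 18.3 ± 0.763%. These shares describe messages, not proteins, and were not tested.

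**Figure D4:**
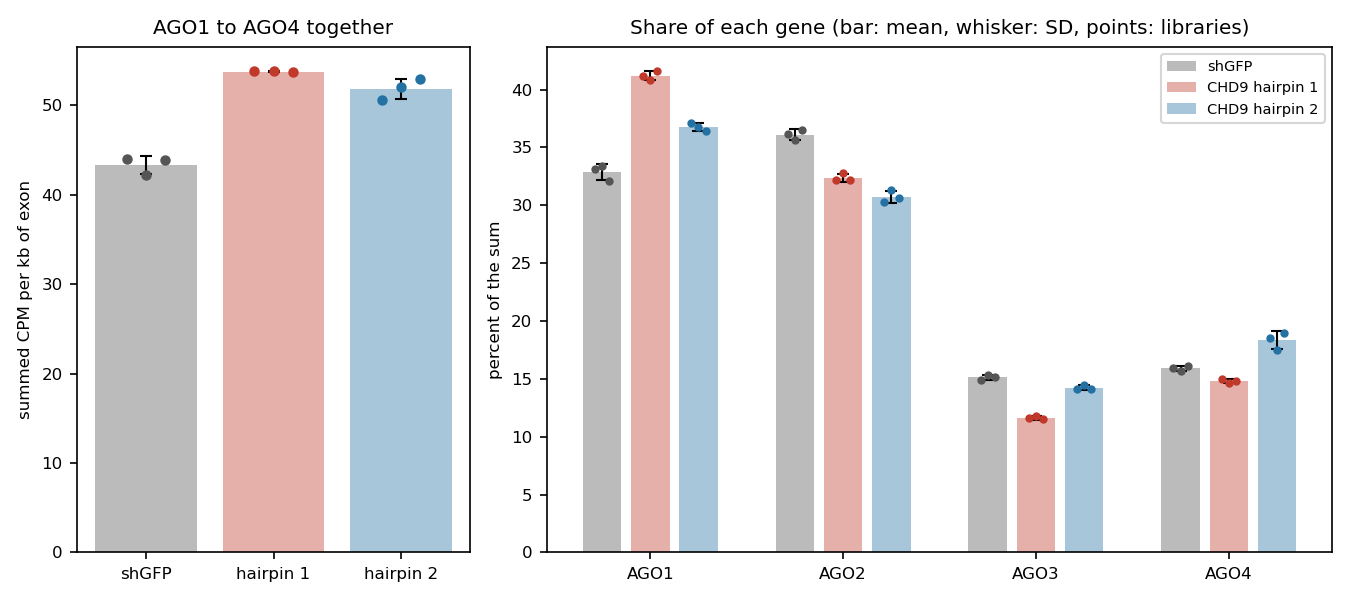
Summed CPM per kb of exon of the 4 Argonaute genes by group (left) and the share of each gene in that sum in percent (right; bars, means; whiskers, SD, n = 3; points, libraries). The AGO1 share is 32.9% in shGFP, 41.2% with hairpin 1 and 36.7% with hairpin 2.

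The TNRC6 scaffold genes TNRC6A and TNRC6B rose with both hairpins. TNRC6A (ENSG00000090905.19, chr16:24610209-24827632, plus strand) was at 29.6, 31.5 and 31.5 CPM in shGFP libraries, 34.6, 37.2 and 35.2 with hairpin 1, and 34.3, 36.6 and 37.6 with hairpin 2. Its log2 fold change was 0.21 (SE 0.056, edgeR adjusted p = 0.0020) and 0.23 (SE 0.055, edgeR adjusted p = 0.00093). TNRC6B (ENSG00000100354.21, chr22:40044817-40335808, plus strand) was at 70.2, 72.1 and 67.8 CPM in shGFP libraries, 79.5, 82.5 and 79.1 with hairpin 1, and 81.9, 84.7 and 84.5 with hairpin 2. Its values were 0.20 (SE 0.038, edgeR adjusted p = 2.7e-05) and 0.26 (SE 0.038, edgeR adjusted p = 3.6e-07). For both genes every CHD9 hairpin library lay above every shGFP library. The GC and length offset reduced TNRC6B from 0.20 to 0.09 and from 0.26 to 0.13, and the calls held. The third scaffold gene, TNRC6C, did not rise: it was at 20.3, 18.1 and 20.1 CPM in the 3 groups, and fell with hairpin 1 (-0.17, edgeR adjusted p = 0.046).

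The nuclear pair DROSHA and DGCR8, which together form the Microprocessor, was not called in any comparison. DROSHA (ENSG00000113360.16, chr5:31400497-31532196, minus strand) was at 66.2, 72.8 and 71.7 CPM in shGFP libraries, 66.3, 71.5 and 71.0 with hairpin 1, and 71.2, 70.9 and 70.9 with hairpin 2. DGCR8 (ENSG00000128191.16, chr22:20080232-20111877, plus strand) was at 71.1, 71.6 and 70.3 CPM in shGFP libraries, 71.0, 72.5 and 70.1 with hairpin 1, and 68.1, 71.4 and 71.2 with hairpin 2. The groups overlapped for both genes. The 95% interval of the mean log2 fold change was -0.07 to 0.07 for DROSHA and -0.07 to 0.06 for DGCR8. DROSHA counts divided by DGCR8 counts gave 0.989 ± 0.0502, 0.978 ± 0.0403 and 1.01 ± 0.0295 in the 3 groups. The DGCR8 messages hold a hairpin that the Microprocessor itself cuts. The rows for the microRNAs of this gene, MIR3618 and MIR1306, were listed at 0. They share 88 and 85 exon bases with DGCR8 on the same strand, and how shared bases were counted is not given. These zeros therefore measure neither the microRNAs nor the cutting. On the opposite strand, TRMT2A shares 12 exon bases with DGCR8, and the antisense RNA AC006547.2 shares 526, or 7.19% of the DGCR8 exons. AC006547.2 averaged 0.146 CPM over all libraries.

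XPO5 and DICER1, which act after the nuclear cut, rose by small amounts. XPO5 (ENSG00000124571.18, chr6:43522330-43576075, minus strand) was at 105, 109 and 109 CPM in shGFP libraries, 119, 122 and 118 with hairpin 1, and 115, 113 and 116 with hairpin 2. Its log2 fold change was 0.15 (SE 0.033, edgeR adjusted p = 0.00011) with hairpin 1 and 0.09 (SE 0.033, edgeR adjusted p = 0.028) with hairpin 2. The hairpin 2 call was lost with no low-count filter (edgeR adjusted p = 0.054), without shGFP replicate 1 (edgeR adjusted p = 0.12), without hairpin 2 replicate 3 (edgeR adjusted p = 0.079) and in DESeq2 (adjusted p = 0.056), while the log2 fold change stayed at 0.08 to 0.09. XPO5 shares 348 exon bases, 4.08% of its exons, with POLR1C on the opposite strand. POLR1C averaged 47.2 CPM and had log2 fold changes of 0.12 (edgeR adjusted p = 0.031) and -0.01 (edgeR adjusted p = 0.93). The strand setting of the counting is not given in the sources used here, so reads from the shared bases cannot be assigned to one gene.

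DICER1 (ENSG00000100697.14, chr14:95086228-95158010, minus strand) was at 58.1, 55.2 and 57.5 CPM in shGFP libraries, 59.1, 63.8 and 63.0 with hairpin 1, and 58.4, 62.7 and 64.3 with hairpin 2. The lowest library of each hairpin lay just above the highest shGFP library. The log2 fold change was 0.12 (SE 0.044) with each hairpin, at edgeR adjusted p = 0.018 and 0.033. These calls lay close to the threshold. With hairpin 1 the call was lost without shGFP replicate 2, hairpin 1 replicate 2 or hairpin 1 replicate 3 (edgeR adjusted p = 0.089, 0.087 and 0.072) and in DESeq2 (adjusted p = 0.060), with the log2 fold change at 0.10 to 0.12. With hairpin 2 it was lost without shGFP replicate 2 or 3 or hairpin 2 replicate 2 or 3 (edgeR adjusted p = 0.14, 0.052, 0.11 and 0.14) and in DESeq2 (adjusted p = 0.087), with the log2 fold change at 0.09 to 0.13. In the mean of both hairpins DICER1 was at 0.12 (edgeR adjusted p = 0.0086), at 0.10 (edgeR adjusted p = 0.070) without shGFP replicate 2, and at 0.20 with the GC and length offset. DICER1-AS1, an antisense RNA that shares 80 exon bases (0.651% of the DICER1 exons), went the other way, at -0.33 in the mean of both hairpins (edgeR adjusted p = 0.0023) from an average of 9.31 CPM over the 9 libraries.

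Other genes of the pathway were taken from lists by role, and their counts in the mean of both hairpins are to be read against 22.3% of all genes called higher and 23.2% lower. Of 16 nuclear processing cofactors tested, 2 rose, 4 fell and 10 were not called, with a median log2 fold change of -0.03 beside 0.00 for all genes. The cap-binding partner SRRT rose by 0.06, but was not called with hairpin 2 (0.04, edgeR adjusted p = 0.22). The RNA helicase DDX5 (-0.13), the cap-binding subunit NCBP2 (-0.19) and the editing enzyme ADAR (-0.12) fell.

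Of 12 genes for export and Argonaute loading, 3 rose, 1 fell and 8 were not called (22.3% and 23.2% of all genes), with a median of 0.02. The co-chaperones FKBP5 (0.29) and FKBP4 (0.06) and the export GTPase RAN (0.06) rose, and the chaperone HSPA8 (-0.07) fell. FKBP4 had 0.00 with hairpin 1 and 0.12 with hairpin 2, and RAN was not called with hairpin 2 (0.05, edgeR adjusted p = 0.071). Of the DICER1 partners, TARBP2 was not called (-0.04 and -0.02), and PRKRA was at 18.1, 15.4 and 18.1 CPM, lower with hairpin 1 (-0.24, edgeR adjusted p = 0.0080) and at -0.01 with hairpin 2.

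Silencing effectors act downstream of the TNRC6 scaffolds. Of 27 tested of 28 listed, 7 rose, 6 fell and 14 were not called, with a median of -0.01. Both counts are near the all-gene shares of 22.3% higher and 23.2% lower. The deadenylase subunits CNOT7 (0.20) and CNOT6L (0.21) rose with both hairpins. The poly(A)-binding protein PABPC1 was at 0.25 with hairpin 1 and 0.00 with hairpin 2. XRN1, the main cytoplasmic exonuclease acting from the 5′ end, averaged 53.3, 38.5 and 44.2 CPM in shGFP, hairpin 1 and hairpin 2 libraries, and fell, with a mean log2 fold change of -0.37 (edgeR adjusted p = 3.8e-10). The decapping enzyme DCP2 fell from 87.6 to 67.2 and 75.1 CPM (-0.30, edgeR adjusted p = 4.4e-10). PAN2, another deadenylase subunit, was at -0.43 with hairpin 1 and -0.08 with hairpin 2. DCP1B was listed at 0 in every library and the deadenylase gene PARN had 4 to 11 counts. The table also holds identifiers outside GENCODE 29, and whether reads of such genes were lost in the counting was not tested, so these values do not show absent expression.

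Of 10 microRNA turnover genes tested of 14 listed, 3 rose, 1 fell and 6 were not called (22.3% and 23.2% of all genes), with a median of -0.01. The nuclear exonuclease XRN2 rose from 118 CPM to 138 and 142 (0.25, edgeR adjusted p = 3.5e-10). TSN, a subunit of the translin nuclease, rose by 0.12 in the mean of both hairpins, and its partner TSNAX fell by 0.13. TSN was not called with hairpin 1 (0.10, edgeR adjusted p = 0.091). TSNAX was not called with hairpin 2 (-0.11, edgeR adjusted p = 0.085). ZSWIM8, the ubiquitin ligase receptor of target-directed microRNA decay, was at 77.9, 91.5 and 82.5 CPM, higher with hairpin 1 (0.23, edgeR adjusted p = 5.1e-07) and at 0.08 with hairpin 2 (edgeR adjusted p = 0.075). The let-7 inhibitor LIN28B was listed at 0 in all 9 libraries, and LIN28A had 4 counts in 1 of them. As for DCP1B, these values do not show absent expression.

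**Figure D5:**
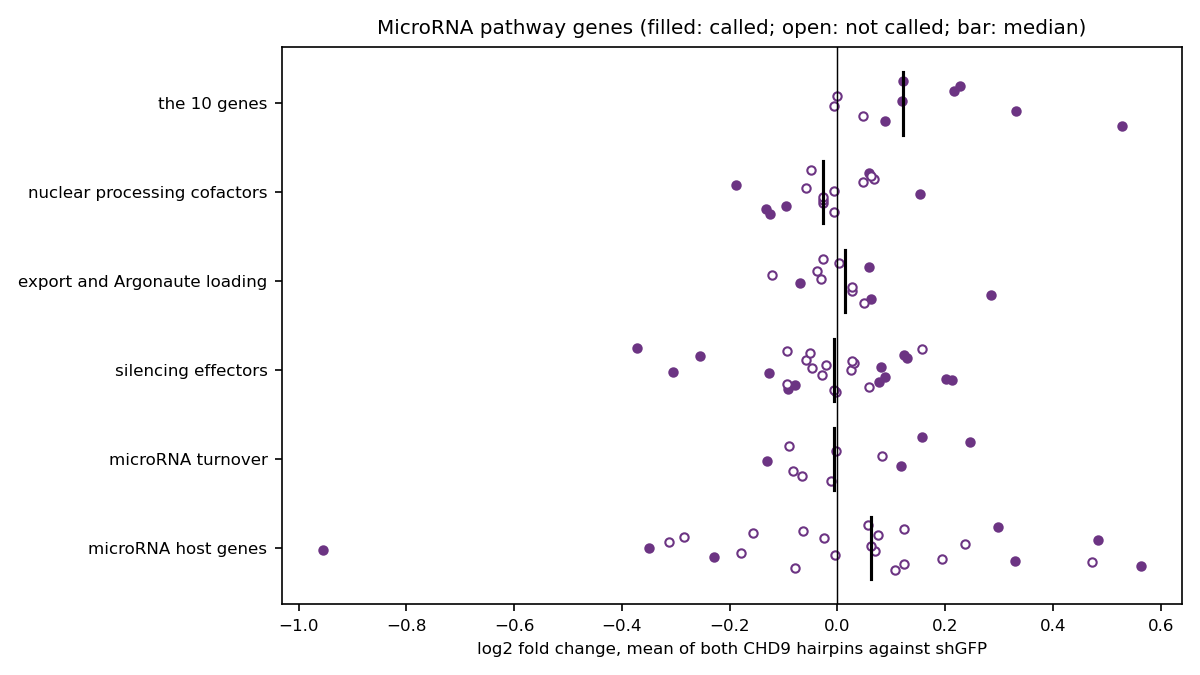
Log2 fold change, mean of both hairpins against shGFP, of the 10 genes and of each pathway list (filled points, called genes; open points, not called; short lines, medians). The median of the 10 genes lies at 0.12 and those of the 5 lists between -0.03 and 0.06.

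Host genes of some microRNAs could be followed, although mature microRNAs are too short for these libraries and were not measured. The counts are of polyA-selected host RNA, and how they relate to the primary microRNA transcripts was not tested. Of 86 named host genes 25 passed the filter on low counts. The rest had few or no counts, which, as for DCP1B, does not show absent expression. Of the 25, 4 rose, 3 fell and 18 were not called, with a median of 0.06. Both counts are smaller shares than the 22.3% and 23.2% of all genes. Most of the tested hosts were at low levels, where small changes are harder to call, so these shares are not read as a result about host genes. MIRLET7BHG rose from 16.7 CPM to 21.3 and 19.9 (0.30, edgeR adjusted p = 0.00014), MIR600HG from 13.1 to 18.2 and 18.5 (0.48, edgeR adjusted p = 7.7e-08) and MIR1915HG from 6.68 to 9.74 and 9.92 (0.56, edgeR adjusted p = 3.8e-06). The other riser, MIR29B2CHG, went from 6.36 to 8.14 and 7.97 CPM (0.33, edgeR adjusted p = 0.014) with overlapping libraries, and was singled out after its values were seen. MIR4453HG (-0.35), MIR34AHG (-0.23) and MIR4300HG (-0.96, from a mean of 0.975 CPM in shGFP) fell. MIR34AHG was not called with hairpin 1 (-0.20, edgeR adjusted p = 0.11). The mature microRNAs of the hosts that rose are shown because the seed, bases 2 to 8 in capitals, is what an Argonaute uses to choose targets. They are RefSeq sequences on GRCh38.p14, 5′ to 3′.
hsa-let-7b-5p: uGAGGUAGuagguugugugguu
hsa-let-7a-5p: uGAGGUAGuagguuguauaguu
hsa-miR-29b-3p: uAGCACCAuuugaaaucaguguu
hsa-miR-29c-3p: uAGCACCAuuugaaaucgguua
hsa-miR-600: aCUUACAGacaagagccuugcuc
hsa-miR-1915-3p: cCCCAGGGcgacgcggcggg
Let-7b and let-7a, from MIRLET7BHG, share the seed GAGGUAG. The other let-7 hosts tested were not called in the mean of both hairpins: MIRLET7A1HG at 0.12 (edgeR adjusted p = 0.44) and MIRLET7IHG at 0.06 (edgeR adjusted p = 0.76). MiR-29b and miR-29c, from MIR29B2CHG, share AGCACCA, and miR-600 and miR-1915-3p have seeds of their own.

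Over the 9 libraries, 10898 genes with a mean of at least 5 CPM were compared with AGO1 by the Pearson correlation of log2 CPM. Unnamed genes and those with clone or LINC names were left out. SLC35F1 and SLC25A23 were among the 3 that followed it most closely, each with r of 0.996. SLC35F1 was at 4.43, 14.2 and 9.37 CPM in shGFP, hairpin 1 and hairpin 2 libraries, and the mitochondrial carrier SLC25A23 at 106, 134 and 123. Each had the AGO1 order of groups. The 9 libraries form 3 groups, so r mainly reflects 3 group means, and 511 of the 10898 genes had r above 0.95.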

How the data were processed

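PolyA-selected RNA of 22Rv1 cells was sequenced in 9 libraries, 3 per group. The authors deposited raw counts per Ensembl gene. Trim Galore, STAR, DESeq2 and hg38 appear in the submitters' processing notes, without versions; the counter, its strand setting and the annotation were not given in the sources used. Symbols came from a table of gene names and GENCODE 29 (60691 of 67071 identifiers). Counts were fitted with edgeR 4.0.16 (R 4.3.3): filterByExpr with a minimum count of 10, TMM, all 9 libraries, 1 mean per group, quasi-likelihood tests and Benjamini-Hochberg adjustment. The scripts were tested on simulated data. The members and gene lists were chosen with earlier results of these data known. Named were all members, CHD9, set partners, overlapping and neighbouring genes, up to 3 called genes per direction and list by smallest p, and the 3 genes most like AGO1. A few genes that this rule names are not reported here. Alternatives were DESeq2 1.42.0, voom with limma 3.58.1, other normalization, filters and fits, a GC and length offset, a replicate block, and leaving out each library. Libraries of a group differed beyond counting noise (chi-square per degree of freedom 1.72 to 2.86) and all counted as replicates.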

Additional observations from a re-analysis of the deposited data

Results flagged for a closer look

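The 4 Argonaute genes had effects that differed between the CHD9 hairpins in the direct test of hairpin 1 against hairpin 2. The difference in log2 fold change, hairpin 1 minus hairpin 2, was 0.22 for AGO1, 0.13 for AGO2, -0.23 for AGO3 and -0.25 for AGO4 (edgeR adjusted p = 5.3e-09, 0.00038, 5.8e-08 and 8.1e-06). The hairpin 1 and hairpin 2 libraries did not overlap for any of these genes. Groups of 3 libraries are too small to look for single outlying libraries.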

How the results depend on the processing

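AGO1, AGO4, TNRC6A and TNRC6B kept their calls with each hairpin and in the mean of both under every alternative fitted, at an adjusted p under 0.05. Counted in either direction, the members called ranged from 5 to 8 in the mean of both hairpins and 6 to 8 with hairpin 1. They ranged from 5 to 8 with hairpin 2 and 4 to 5 between the hairpins. Same-numbered libraries did not deviate together (correlations of -0.02 to 0.04), so the numbers were not treated as pairs. With the replicate number as a block, 7669, 7965, 5994 and 4932 genes were called in the 4 comparisons against 7675, 7972, 6009 and 4921 without it, and the members called stayed at 7, 7, 7 and 4. The offset for GC content and length of the longest transcript, with or without the block, turned AGO2 to -0.03 in the mean. It turned AGO2 to -0.09 with hairpin 2, where AGO2 was called lower, and DGCR8 to -0.03 between the hairpins. It lowered AGO1 from 0.53 to 0.43 and raised DICER1 between the hairpins to 0.11 (edgeR adjusted p = 0.031). The cause was not tested. Leaving out single libraries turned values near 0: DGCR8 ranged from -0.01 to 0.01 in the mean, from -0.03 to 0.01 with hairpin 2 and from -0.01 to 0.03 between the hairpins. DROSHA ranged from -0.05 to 0.02 with hairpin 1 and from -0.02 to 0.04 with hairpin 2. Between the hairpins DICER1 ranged from -0.04 to 0.03 and TNRC6A from -0.06 to 0.01. AGO3 in the mean was called only without hairpin 2 replicate 1 (0.06, edgeR adjusted p = 0.049).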
